A study of Bos taurus with 8 samples.

Results

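SAA3 (ENSBTAG00000049589) and SAA2 (ENSBTAG00000022394) encode serum amyloid A proteins, and their transcripts were followed here in bovine blood cells with and without lipopolysaccharide (LPS), the outer-membrane glycolipid of Gram-negative bacteria. They are 2 of the 21861 genes listed in the single-cell RNA sequencing (scRNA-seq) tables and were matched by gene name. Both were chosen by their measured UMI counts in these same cells, which were known to be high and to differ between treatments, so the levels below are a description and carry no test. Blood of 4 lactating Holstein females aged 2 years was pooled before treatment, so the cells of the animals cannot be told apart in the tables. Parts of the pool were left without LPS or were given LPS at 2 µg/ml and 37 °C for 2 h, 4 h or 8 h, and mononuclear cells (PBMCs) were then isolated. How long the blood without LPS was incubated is not given in the sources used here, so time in culture cannot be told apart from LPS. Each treatment gave 1 scRNA-seq library and 1 library of the single-cell assay for transposase-accessible chromatin (scATAC-seq), so a difference between treatments has no replicate check and library effects cannot be told apart from LPS.

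Serum amyloid A proteins are small apolipoproteins that join high-density lipoprotein during the acute-phase response. The liver secretes SAA1 and SAA2 when interleukin 6, interleukin 1 and tumour necrosis factor act on it through STAT3, C/EBP and NF-κB factors. SAA3 is made mainly outside the liver in ruminants, by the mammary gland, gut and macrophages among others, and serum amyloid A in milk is used as a sign of mastitis. The proteins attract leukocytes and can signal through formyl peptide, Toll-like and scavenger receptors.

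The name SAA has 4 rows in the tables, SAA3, SAA2, SAA4 (ENSBTAG00000002963) and M-SAA3.2 (ENSBTAG00000054278). In the RefSeq annotation of the ARS-UCD2.0 assembly these genes stand in the order SAA3, SAA2, SAA4 and M-SAA3.2 on the same chromosome. That annotation gives SAA1 as a synonym of SAA2, and SAA3 as a synonym of M-SAA3.2. SAA3 and M-SAA3.2 are closely related copies, so how reads were shared between their rows is uncertain. With the 2 rows summed, the log2 ratios of SAA3 to the library without LPS were 0.81 (2 h), 1.09 (4 h) and 0.69 (8 h), near those of the SAA3 row alone given below. None of the 4 SAA identifiers has a row in any of the 4 scATAC-seq gene tables, which list 11658, 13821, 13255 and 11573 genes, so their accessibility was not analysed here.

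The scRNA-seq cells kept numbered 7821 without LPS, 9865 (2 h), 7387 (4 h) and 3411 (8 h), and held 16657841 to 47875879 unique molecular identifiers (UMIs, each standing for 1 captured transcript). SAA levels were read in cells with at least 2 UMIs of CD14 plus CSF1R, the LPS co-receptor and the receptor of macrophage colony-stimulating factor, and none of CD3D, CD3E, CD3G, CD79A, CD79B or MS4A1. No SAA gene entered this gate. It held 676, 296, 112 and 56 cells in the order no LPS, 2 h, 4 h and 8 h, in which all runs of 4 values below are given, or 8.64%, 3.0%, 1.52% and 1.64% of the cells, with median depths of 9876, 12481, 10109 and 10027 UMIs. All 12 monocyte markers on the list used were detected in it in every library, and summed to 40902, 13851, 10135 and 15188 counts per 1000000 UMIs (CPM). Of 9 neutrophil markers 7, 7, 7 and 6 were detected, with CAMP and MMP8 at 0 in all libraries, and they summed to 17998, 12679, 16239 and 23900.3 CPM. The neutrophil sum was thus above the monocyte sum at 4 h and 8 h. The chemokine gene CCL2 alone made up 35340, 10611.5, 6660 and 11028 CPM of the monocyte sum. The neutrophil list holds S100A8, S100A9 and CSF3R. At 8 h they were at 6624, 6770 and 7.90 CPM in gate cells with at least 10 SAA3 UMIs. In gate cells without a SAA3 UMI they were at 7252, 8322 and 66.9 CPM. Comparing the sums therefore does not show which cell type the gate held. The part of neutrophil transcripts in the SAA levels was not tested beyond leaving out cells with a CSF3R UMI. That gave SAA3 log2 ratios to no LPS of 0.77, 1.29 and 0.67 at 2 h, 4 h and 8 h. For SAA2 they were -0.27, -1.04 and -0.58. The hepatocyte list summed to at most 0.622 CPM, with ALB, TTR and APOB at 0 in all libraries. Between 8 and 24 barcodes were shared by a pair of libraries, none of them in this gate.

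In CD14/CSF1R-positive cells SAA3 was among the most abundant transcripts in all 4 libraries and was higher in each LPS library than without LPS. It made up 5624 CPM without LPS (95% exact Poisson interval 5566 to 5682), 9752 CPM at 2 h (from 9648 to 9857), 12068 CPM at 4 h (from 11863 to 12277) and 8843 CPM at 8 h (from 8596 to 9095). The lowest level was that without LPS and the highest that at 4 h, and no pair of these intervals overlapped. Intervals here cover counting error alone, not the spread between cells or libraries. By CPM, SAA3 ranked 21, 14, 8 and 13 among all genes of the gate. The log2 ratio to no LPS, on CPM with a pseudocount of 1, was 0.79 at 2 h (interval from 0.77 to 0.82), 1.10 at 4 h (from 1.07 to 1.13) and 0.65 at 8 h (from 0.61 to 0.70). Only the ratio at 4 h was above 2-fold, a size passed upward by 5.92% of the 7410 genes tested at that time. At 2 h and 8 h the share of genes at least 2-fold higher was 4.22% and 6.03%. The value at 8 h rested on few cells: without the 5 cells of each library with the most SAA3 UMIs it was -1.01, against 0.81 at 2 h and 0.74 at 4 h. The gate genes differed between libraries too. In gate cells without a SAA3 UMI, CD14 was at 2339, 1454, 1676 and 1763 CPM and CSF1R at 137, 44.1, 64.1 and 72.9 CPM. A change of SAA levels per cell therefore cannot be told apart from a change in which cells passed the gate.

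SAA2 followed another course in the same cells. Its level was 3120.2 CPM without LPS (3077 to 3164), 3199.7 CPM at 2 h (from 3140.2 to 3260.1), 1221 CPM at 4 h (from 1156 to 1288) and 1872 CPM at 8 h (from 1759 to 1990). The intervals of the levels without LPS and at 2 h overlapped, and those at 4 h and 8 h lay below them. Its rank among genes was 39, 40, 97 and 59. The log2 ratio to no LPS was 0.04 at 2 h (from 0.0026 to 0.07), -1.35 at 4 h (from -1.44 to -1.27) and -0.74 at 8 h (from -0.83 to -0.65). At 4 h SAA2 was more than 2-fold lower, as were 12.3% of all genes tested, and the shares of genes this far down at 2 h and 8 h were 21.3% and 9.46%. The size at 4 h depended on the gate: with cells that also had a UMI of a lymphocyte gene kept in, it was -0.14, and without the 5 cells of each library with the most SAA2 UMIs it was -5.43. At 8 h the same 2 changes gave -0.41 and -4.27.

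The ratio of SAA3 to SAA2 within a library needs no scaling between libraries. There were 1.80 SAA3 UMIs for each SAA2 UMI without LPS (1.77 to 1.83), 3.05 at 2 h (from 2.98 to 3.11), 9.89 at 4 h (from 9.34 to 10.5) and 4.72 at 8 h (from 4.42 to 5.06). Within this gate SAA3 thus exceeded SAA2 in every library, most of all at 4 h. At 4 h, however, 1 cell held 49.2% of the SAA2 UMIs of the gate. Over all cells kept the ratio was 1.72, 2.42, 3.53 and 3.77, so it was highest at 8 h there. These values compare UMIs of 3′ libraries, where each transcript is counted once and gene length was not corrected for. Together the genes took 0.874%, 1.30%, 1.33% and 1.07% of all UMIs of the gate.

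Genes as a whole shifted at 2 h, which bears on the scale of every ratio at that time. The median log2 ratio over all genes with at least 20 UMIs was -0.55 (2 h), -0.17 (4 h) and -0.05 (8 h). With TMM scaling, SAA3 stood at 1.25, 1.16 and 0.53, and SAA2 at 0.49, -1.29 and -0.86. The order of the SAA3 levels at 2 h and 4 h was reversed by this scaling, as it was by DESeq2 size factors (1.36 and 1.25), with cells weighted equally (0.72 and 0.70) and without the 5 richest cells, while SAA2 under TMM was again lowest at 4 h.

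Summed over all cells kept, both SAA transcripts were lower with LPS instead. SAA3 made up 1135 CPM without LPS, 924 CPM (2 h), 448 CPM (4 h) and 527 CPM (8 h). SAA2 made up 659.6, 381, 127 and 139.9 CPM in the same order. The share of CD14/CSF1R-positive cells moved with these sums, and its part in them was not tested. In such a sum, fewer cells of a type and less RNA per cell cannot be told apart.

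**Figure D1:**
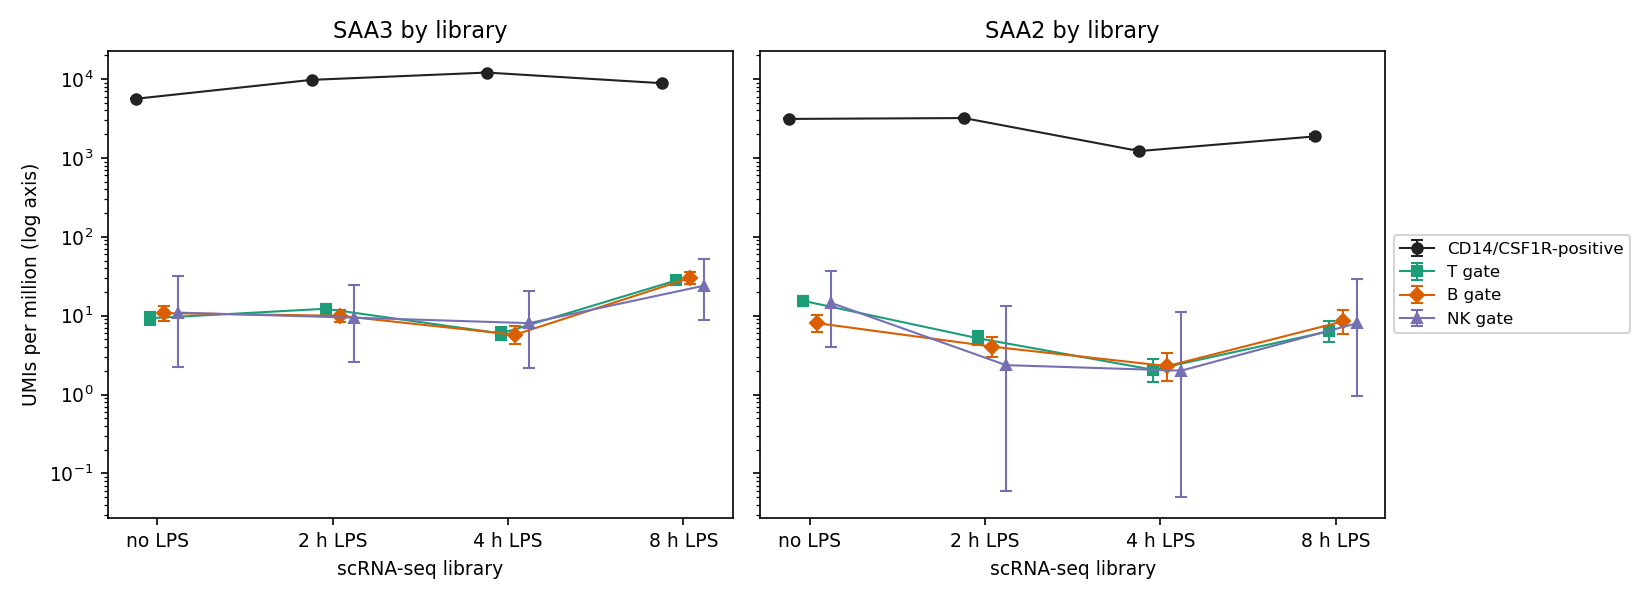
Level of SAA3 (left) and SAA2 (right) in CPM on a log axis, for the 4 scRNA-seq libraries and 4 gates, with exact Poisson 95% intervals as error bars (1 library per point). The CD14/CSF1R-positive cells sit between 1221 and 12068 CPM, and the T, B and NK gates between 2.01 and 30.1 CPM.

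The transcripts were spread very unequally over the cells of the gate. No SAA3 UMI was found in 51.5% of the cells without LPS, 41.9% (2 h), 47.3% (4 h) and 33.9% (8 h). At the other end, 15.1%, 33.4%, 26.8% and 16.1% of the cells had 100 or more, and these cells held 85.1%, 92.7%, 95.5% and 88.3% of the SAA3 UMIs. The share of such cells was therefore highest at 2 h and 4 h. A single cell held up to 1219, 921, 1392 and 1293 SAA3 UMIs, and SAA3 reached 9.84% of all UMIs of a cell. Among cells with any SAA3 UMI, the median was 36 without LPS, 144.5 (2 h), 116 (4 h) and 8 (8 h).

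SAA2 was found in fewer cells and was more concentrated. A share of 72.9%, 75.7%, 85.7% and 73.2% of the cells had no SAA2 UMI. The 5 cells with the most SAA2 held 21.2% of its UMIs without LPS, 32.8% (2 h), 95.7% (4 h) and 93.7% (8 h). The 5 cells with the most SAA3 held 12.4%, 12.5%, 37.1% and 76.7% of that transcript. In the libraries of 4 h and 8 h the SAA2 level is therefore that of a handful of cells.

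**Figure D2:**
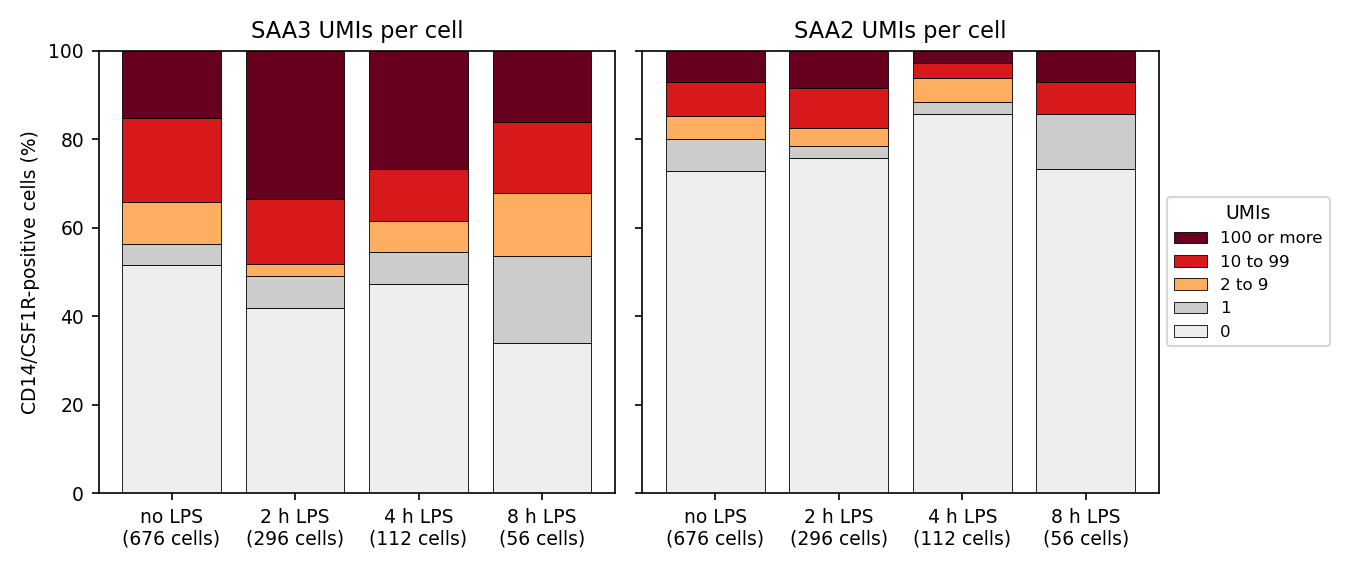
Share of CD14/CSF1R-positive cells (%) by the number of SAA3 (left) and SAA2 (right) UMIs in the cell, stacked, for each library (1 library per bar, number of cells under each). For SAA3 the part with 100 or more UMIs runs from 15.1% without LPS to 33.4% at 2 h, and for SAA2 the part at 0 runs from 72.9% to 85.7%.

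Depth differs between cells, so the share of cells with 10 or more UMIs was also taken over cells of at least 5000 UMIs. For SAA3 it was 42.0% without LPS (37.3% to 46.7% by the exact binomial method), 60.9% at 2 h (from 54.2% to 67.3%), 60.3% at 4 h (from 47.7% to 72.0%) and 47.1% at 8 h (from 29.8% to 64.9%). The intervals at 2 h and 4 h lay above that of no LPS, and the interval at 8 h overlapped all others. For SAA2 it was 18.3%, 21.8%, 10.3% and 17.6%. The intervals of these shares, 4.24% to 20.1% at 4 h and 6.76% to 34.5% at 8 h among them, overlapped between all libraries. For both genes such intervals treat cells as independent and leave out the spread between libraries, so they carry no test of LPS. With every cell thinned to 1000 UMIs, 41.4%, 50%, 45.5% and 44.9% of the cells kept a SAA3 UMI, against 48.5%, 58.1%, 52.7% and 66.1% unthinned. The high unthinned share at 8 h was thus not seen after thinning, which also removes SAA3 from cells with few SAA3 UMIs. Among cells of at least 5000 UMIs, 49.6%, 30.2%, 29.4% and 29.4% had no SAA3 UMI. For SAA2 the thinned shares were 19.1%, 19.1%, 10.9% and 14.3%, against 27.1%, 24.3%, 14.3% and 26.8%. Cells too shallow to thin numbered 38, 8, 11 and 7.

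Both transcripts tended to lie in the same cells. Of cells with a SAA3 UMI, 45.7% also had a SAA2 UMI without LPS (40.2% to 51.3%), 37.8% at 2 h (from 30.5% to 45.5%), 25.4% at 4 h (from 14.98% to 38.4%) and 37.8% at 8 h (from 22.5% to 55.2%). Of cells without a SAA3 UMI, 9.48%, 5.65%, 1.89% and 5.26% did. The intervals of these pairs of shares did not overlap without LPS, at 2 h and at 4 h, and overlapped at 8 h, where only 19 cells lacked SAA3. Depth differed too, with medians of 8838, 6104, 3102 and 9352 UMIs in cells without SAA3 and 12025, 14731, 13975 and 11397 UMIs in cells with it. Cells with at least 10 SAA3 UMIs held 83.2%, 96.0%, 99.02% and 99.6% of the SAA2 UMIs of the gate. The reverse did not hold, since 34.6%, 31.5%, 16.3% and 44.4% of those cells had at least 10 SAA2 UMIs. In the library without LPS, 20 cells had at least 10 SAA2 UMIs and under 10 of SAA3, as did 7 cells at 2 h and 0 at 4 h and 8 h.

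**Figure D3:**
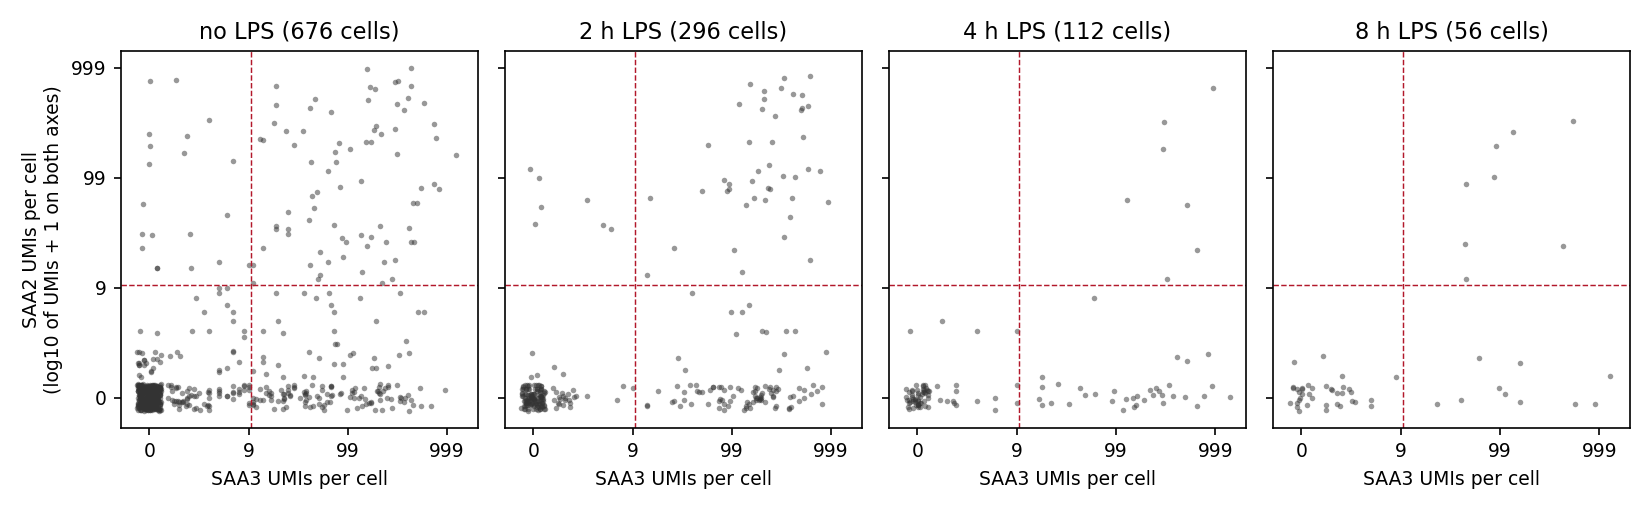
SAA3 UMIs (horizontal) against SAA2 UMIs (vertical) of each CD14/CSF1R-positive cell in the 4 libraries, both as log10 of UMIs + 1, with cells under 3 UMIs jittered and dashed lines just under 10 UMIs. The upper left field, with SAA2 high and SAA3 low, holds 20 cells without LPS and 7 at 2 h and is empty at 4 h and 8 h.

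SAA levels varied with the marker UMIs that set the gate. No cell of the gate had CSF1R alone. SAA3 stood at 5587, 10719.6, 14933 and 8211 CPM in cells with both CD14 and CSF1R, and at 5738, 8603, 8823 and 10474 CPM in cells with CD14 alone. Cells with both were higher at 2 h and 4 h, and cells with CD14 alone were higher at 8 h, with median depths of 13262, 15150, 15989 and 15758 UMIs against 3030, 7699, 3971 and 1656. SAA2 stood at 2709, 3855, 1273 and 2077 CPM with both and at 4367, 2422, 1161 and 1342 CPM with CD14 alone.

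Cells that had at least 2 UMIs of CD14 plus CSF1R together with a UMI of a T or B cell gene were left out of the gate, and they carried much SAA. They numbered 247, 138, 74 and 83 cells. They held 15.8%, 22.8%, 25.0% and 26.9% of all SAA3 UMIs kept and 19.1%, 38.6%, 72.3% and 43.6% of all SAA2 UMIs. SAA2 in them was at 2135, 3957, 4382 and 2522 CPM, so its level at 4 h was highest there and lowest in the gate. SAA3 to SAA2 was 1.42, 1.43, 1.22 and 2.32 in them, below the value of the gate in each library. Whether these barcodes hold 1 cell or several was not tested.

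Lymphocytes served as the background. The T gate asked for at least 2 UMIs of CD3D, CD3E and CD3G, the B gate for at least 2 of CD79A, CD79B and MS4A1, and the NK gate for a UMI of NCR1. None of these cells had a CD14 or CSF1R UMI, T cells had none of the B cell genes, B cells none of the T cell genes, and NK cells neither. Together they held 4630, 6505, 5287 and 1858 cells with median depths of 4078, 4233, 4906 and 5614 UMIs. SAA3 was at 9.87 CPM without LPS (8.58 to 11.3), 11.3 CPM at 2 h (from 10.2 to 12.5), 5.91 CPM at 4 h (from 5.06 to 6.86) and 28.6 CPM at 8 h (from 25.6 to 32.0). SAA2 was at 12.6 CPM (11.2 to 14.3), 4.69 CPM (3.97 to 5.52), 2.15 CPM (1.65 to 2.75) and 7.09 CPM (5.62 to 8.84). SAA3 in lymphocytes was thus lowest at 4 h and highest at 8 h. Of these cells 4.28%, 5.09%, 3.2% and 12.3% had a SAA3 UMI and 4.04%, 2.24%, 1.19% and 3.77% a SAA2 UMI. The most SAA3 UMIs in a lymphocyte were 5, 5, 3 and 6, against 921 to 1392 in the gate.

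T and B cells gave close values for SAA3, with 9.28 and 10.8 CPM without LPS, 12.2 and 9.96 CPM at 2 h, 5.96 and 5.74 CPM at 4 h and 28.0 and 30.1 CPM at 8 h. Their intervals overlapped in each library. The NK gate had 3 to 6 SAA3 UMIs in a library, too few to set apart from either. For SAA2 the T gate stood above the B gate without LPS, at 15.5 (13.4 to 17.8) against 8.06 CPM (6.22 to 10.3). A single lymphocyte of that library held 75 SAA2 UMIs, and without it the lymphocyte level was 9.12 CPM.

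Relative to the CD14/CSF1R-positive cells, the lymphocyte level of SAA3 was 0.176% without LPS, 0.116% (2 h), 0.0489% (4 h) and 0.324% (8 h). For SAA2 it was 0.405%, 0.147%, 0.176% and 0.379%. The same percentage for the 10 monocyte markers that set no gate had a median of 0.561%, 1.03%, 0.859% and 1.02%, above both SAA genes in every library. Among those markers the chemokine CCL2 stood at 0.663%, 0.550%, 0.553% and 1.25%, and CST3, which many cell types express, was highest at 52.3% to 84.6%. VCAN, also among those markers, was lower than CCL2 in every library, at 0.246%, 0.151%, 0.113% and 0.256%. The lymphocyte levels of both SAA genes were taken as the background, and whether lymphocytes express them was not tested.

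SAA3 to SAA2 in lymphocytes was 0.781 without LPS (0.649 to 0.939), 2.41 at 2 h (from 1.98 to 2.94), 2.75 at 4 h (from 2.05 to 3.72) and 4.04 at 8 h (from 3.15 to 5.23). The same ratio over all cells of the library was 1.72, 2.42, 3.53 and 3.77. The lymphocyte interval held the value of all cells at 2 h, 4 h and 8 h but not without LPS, where it was 1.08 (0.886 to 1.32) with the cell of 75 SAA2 UMIs left out. It held the value of the CD14/CSF1R-positive gate at 8 h alone.

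**Figure D4:**
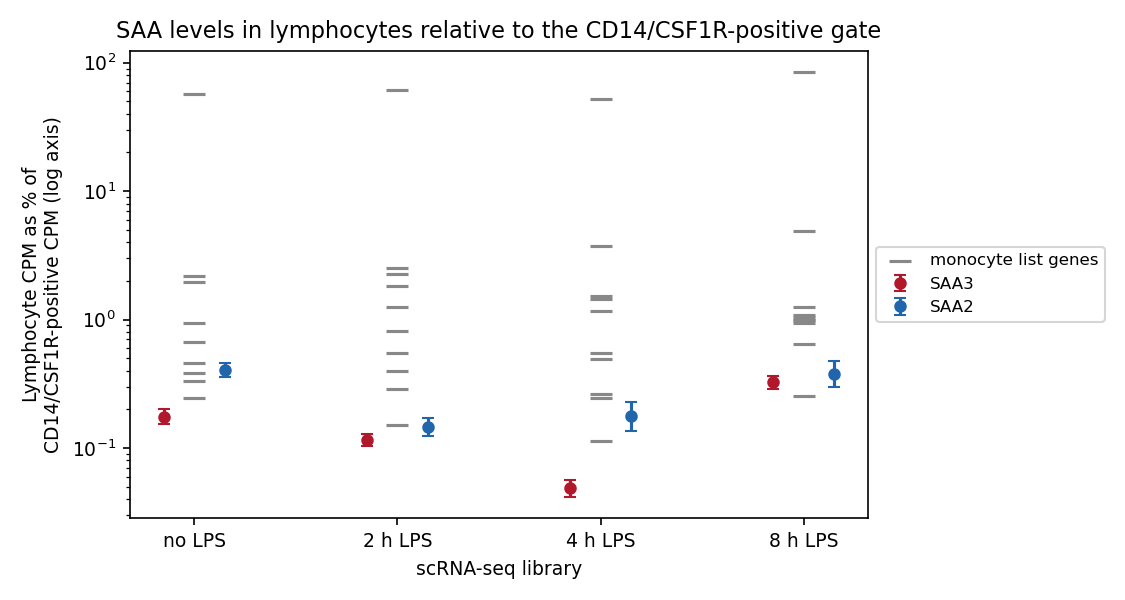
Lymphocyte level as a percentage of the CD14/CSF1R-positive level (log axis) for SAA3 and SAA2 with exact 95% intervals, and for the monocyte markers that set no gate (grey dashes, values of 0 not drawn), by library. SAA3 is lowest at 4 h (0.0489%) and highest at 8 h (0.324%), and both genes lie below the markers' median in each library.

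SAA3 UMIs were also found in many barcodes of low depth at 8 h. These were ungated barcodes under 2000 UMIs with no CD14 or CSF1R UMI, 589, 702, 392 and 573 cells with median depths of 917, 1076.5, 961 and 999 UMIs. A SAA3 UMI was found in 3.57% of them without LPS, 7.41% (2 h), 5.36% (4 h) and 48.3% (8 h) (44.2% to 52.5%), and a SAA2 UMI in 3.90%, 1.71%, 1.02% and 13.6%. The 8 h library stood apart, although the SAA3 UMIs were spread thinly: the most in a cell was 7, and the level was 848 CPM or 9.59% of that in the CD14/CSF1R-positive cells. CCL2 UMIs were found in 53.7%, 19.1%, 7.65% and 77.3% of these cells, at 37.3% of its gate level at 8 h. UMIs of CD3E, a T cell gene, were found in 18.3%, 23.1%, 20.2% and 23.0% of them. Whether the SAA3 UMIs of these barcodes were made in them or came from RNA released by other cells was not tested. Over all cells kept, 26.6% had a SAA3 UMI at 8 h, against 9.74% without LPS, 7.67% at 2 h and 4.52% at 4 h.

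The other SAA rows were far lower in CD14/CSF1R-positive cells. M-SAA3.2 stood at 129.8 CPM without LPS (121 to 139), 366 CPM at 2 h (from 346 to 387), 199.9 CPM at 4 h (from 174 to 228) and 451 CPM at 8 h (from 397 to 511). It was higher in each LPS library, with log2 ratios of 1.49, 0.62 and 1.79 and intervals that did not reach 0. UMIs of M-SAA3.2 were found in 6.07%, 12.5%, 10.7% and 7.14% of the cells, and the 5 richest cells held 67.5%, 67.5%, 82.9% and 100% of them. SAA4, which in other species is made in the liver without inflammation, had 2 UMIs without LPS, 2 at 2 h and 0 at 4 h and 8 h, where 3 counts would be 2.76 and 5.46 CPM.

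Few other acute-phase genes were detected in the gate. Of 31 genes on a list of acute-phase proteins, 27 had a row and 8 passed a minimum of 20 UMIs over the pair of libraries. At least 2-fold higher were 4 of 8 at 2 h, 3 of 8 at 4 h and 3 of 8 at 8 h, and none was 2-fold lower (M-SAA3.2 is on this list and among the higher at 2 h and 8 h), against 4.22%, 5.92% and 6.03% of all genes higher and 21.3%, 12.3% and 9.46% lower. The median log2 ratio of the 8 was 0.94, 0.53 and 0.83, beside -0.55, -0.17 and -0.05 over all genes. IL1RN, the interleukin 1 receptor antagonist, went from 1274 CPM to 5822, 7657 and 3851 CPM. PTX3, a pentraxin made by leukocytes, went from 3592 CPM to 15070, 8712 and 6269 CPM. MT2A, a metallothionein, went from 3754 CPM to 12334, 8923 and 9254 CPM. The haptoglobin gene HP had log2 ratios of 0.02, 0.23 and 0.86, the complement gene CFB 0.32, 0.17 and 0.06, and neither passed 2-fold. The liver genes CRP, ORM1, LBP, FGA, FGB, FGG, ALB and TTR had no UMI in the gate in any library, where SAA3 and SAA2 were plentiful.

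Genes on a list of inducers and transcription factors of SAA genes in the liver were also read in these cells. The list holds the inhibitors NFKBIA and SOCS3 too, and both count among its higher genes at 2 h. Of 28, 27 had a row and 24 passed the minimum, and 11 were at least 2-fold higher and 3 lower at 2 h. At 4 h it was 5 higher and 3 lower, and at 8 h 1 higher and none lower. Over all genes 4.22%, 5.92% and 6.03% were this much higher and 21.3%, 12.3% and 9.46% lower. Their median log2 ratio was 0.41, 0.26 and 0.20. Among the cytokines, IL6 went from 1256 CPM to 4904 CPM (2 h), 1398 CPM (4 h) and 742 CPM (8 h). IL1B went from 9124 CPM to 21772, 16066 and 17415 CPM, and IL1A from 207 CPM to 1104, 455 and 304 CPM. TNF had log2 ratios of 1.03, 0.45 and 0.96. OSM, a cytokine of the interleukin 6 family, was lower, going from 157 CPM to 94.6, 62.6 and 118 CPM. The NF-κB subunit genes NFKB1, NFKB2 and REL were at least 2-fold higher at 2 h and 4 h, and REL alone of this list at 8 h (log2 ratio 1.02), a call lost with no upper limit on genes, where 0 were higher and 1 lower. NFKBIA, the inhibitor of NF-κB, had ratios of 1.09, 1.00 and 0.28. CEBPD, which encodes the C/EBP factor most tied to SAA in inflammation, was abundant without LPS and stayed within 0.41 of it, at 2239, 2984, 2104 and 2054 CPM. STAT3 had ratios of 0.40, 0.55 and 0.20, and its feedback inhibitor SOCS3 1.09, 1.19 and 0.17. Lower were IL6R, the interleukin 6 receptor, at 2 h and 4 h (-1.12 and -1.16), and the AP-1 gene FOS (-2.03 and -2.24).

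Of 12 SAA receptor genes, FPR1, FPR2 and TLR1 had no row under these names and 8 passed the minimum. None was 2-fold higher and 1 lower at 2 h, 1 higher and 3 lower at 4 h, and 0 higher and 2 lower at 8 h. The shares of all genes 2-fold lower were 21.3%, 12.3% and 9.46% and those higher 4.22%, 5.92% and 6.03%, so the 1 of 8 lower at 2 h was below the background. Their median log2 ratios were -0.78, 0.13 and -0.31. The scavenger receptor genes led the lower ones: CD36 went from 526 CPM to 213, 143 and 338 CPM and SCARB2 from 76.8 CPM to 41.6, 10.1 and 10.9 CPM. TLR2 was at 174, 166, 194 and 182 CPM and TLR4 at 88.3, 96.9, 157 and 89.1 CPM, within 2-fold of no LPS throughout. AGER, the member higher at 4 h, rested on 9 UMIs there. SCARB1, counted as lower at 4 h, had 3 UMIs, and TLR6, counted as lower at 8 h, had 1 UMI, or 1.82 CPM against 6.68 CPM, where 3 counts would be 5.46 CPM.

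Genes of high-density lipoprotein, lipid efflux and the breakdown of SAA numbered 16, of which 11 passed the minimum. At least 2-fold higher were 0, 3 and 2 and lower 2, 2 and 3 at 2 h, 4 h and 8 h, with median log2 ratios of -0.11, -0.32 and 0.21. Set against 21.3%, 12.3% and 9.46% of all genes lower and 4.22%, 5.92% and 6.03% higher, the 2 of 11 lower at 2 h were near the background. ABCA1, the cholesterol exporter, went from 52.4 CPM to 87.9, 137 and 107 CPM, and the collagenase gene MMP1 from 89.8 CPM to 143, 274 and 338 CPM. MMP3, which encodes a stromelysin, went from 4.66 CPM to 9.60 and 45.1 CPM at 2 h and 4 h, with 49 UMIs at 4 h. MMP9, a gelatinase that can cleave SAA, went from 76.0 CPM to 3.2, 8.29 and 10.9 CPM. CTSL and MMP3 were counted as lower at 8 h with 0 UMIs, where 3 counts would be 5.46 CPM against 7.15 and 4.66 CPM without LPS, so a 2-fold difference could not be shown at this depth. The cathepsin gene CTSB was at 1358, 1087, 1183 and 1575 CPM.

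Other genes shared the course of each transcript. Over the 4 libraries of the gate, the 5 of 4973 genes (those with at least 100 UMIs) nearest to SAA3 in log2 ratio were ZBTB17, SWAP70, ACTN1, PPP1R15A and KDM6B, with root mean square differences of 0.06 to 0.11. SWAP70 went from 124 CPM to 236, 272 and 196 CPM. Nearest to SAA2 were BMP2K, PEAK1, ALG2, TAPT1 and CAMTA2, at 0.15 to 0.26, with 4 of them under 20 CPM without LPS. Over 16 values (4 gates in 4 libraries, which share libraries and depth), the highest Pearson correlations of log2(CPM + 1) with SAA3 among 10402 genes were those of a row named CSTB (ENSBTAG00000018189, 0.993), CLEC4D, RAB7B, CXCL5 and VLDLR (0.989). The highest with SAA2 were those of VCAN (0.991), another row named CSTB (ENSBTAG00000000524), DEFB7, THBS1 and FCN1 (0.988). SAA2 and SAA3 correlated at 0.977 over these 16 values, which mainly set the CD14/CSF1R-positive gate apart from lymphocytes.

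Cells rich in SAA3 were compared with cells lacking it inside the gate, as a description, since the cells were divided by their own SAA3 counts. At least 10 SAA3 UMIs were found in 231, 143, 43 and 18 cells, and none in 348, 124, 53 and 19. Of 3327 genes with at least 200 UMIs, SAA3 aside, only 4 (0.12%) were at least 2-fold higher in the rich cells in each of the 4 libraries: SAA2, M-SAA3.2, LDHA and a row without a name, ENSBTAG00000022395. All but the nameless row, which could not be placed, lie near SAA3 in RefSeq's order, where GTF2H1 and HPS5 are among the genes between LDHA and SAA3. LDHA, its neighbours, the nameless row and the genes lower in SAA3-rich cells were picked out after their values were seen.

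LDHA, which encodes a lactate dehydrogenase subunit, was at 639.9, 499, 545 and 494 CPM in SAA3-rich cells and at 291, 220.3, 208 and 152 CPM in cells without SAA3. The log2 ratios were 1.13, 1.17, 1.39 and 1.69. SAA2 was at 6026, 4908, 2033 and 4048 CPM in the rich cells and at 506, 320, 9.16 and 6.08 CPM in the others, the last 2 values being 3 UMIs and 1 UMI. M-SAA3.2 was at 284, 560.02, 330.1 and 885 CPM against 3.66, 24.6, 12.2 and 0 CPM. The nearer neighbour GTF2H1, a general transcription factor subunit, had ratios of 0.56, 0.53, 0.05 and 1.23, TSG101 had -0.10, -0.04, 0.41 and 0.37, and TMEM86A, farther off, had 0.13, 0.67, 1.47 and 3.18, the last 2 resting on 4 UMIs and 1 UMI in the cells without SAA3. GTF2H1, closer to SAA3 than LDHA is, was thus below 2-fold in 3 of the 4 libraries. In cells of at least 5000 UMIs the same 4 genes stood out of 3194, and LDHA had ratios of 1.14, 1.08, 1.23 and 1.81.

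**Figure D5:**
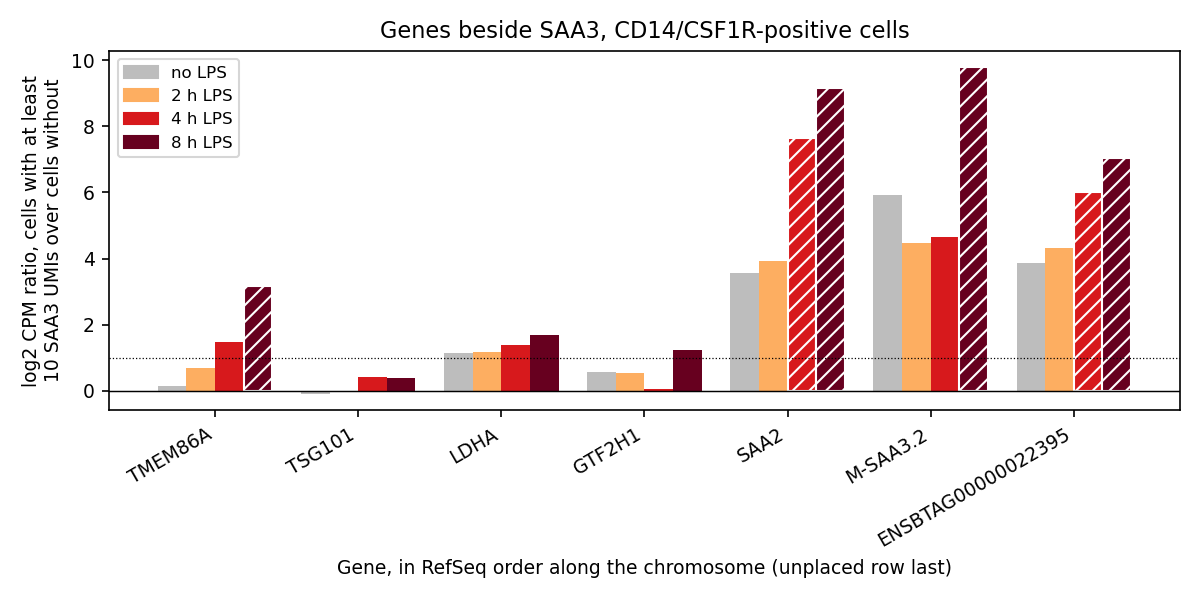
log2 ratio of CPM in cells with at least 10 SAA3 UMIs over cells without SAA3, for each library, in the genes around SAA3 that had at least 200 UMIs, in RefSeq order with the unplaced row last. The dotted line marks 2-fold, and hatched bars have 3 or fewer UMIs in the cells without SAA3, so that their height depends on the pseudocount. LDHA lies above the line in all 4 libraries, between 1.13 and 1.69, and TSG101 does not reach it.

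At least 2-fold lower in the SAA3-rich cells of all 4 libraries were 9 genes (0.271%), C1QA, C1QB, C1QC, CSF1, CSF3R, CD69, SERPINB4, TG and a row without a name. At 8 h SERPINB4 was at 0 against 6.08 CPM, which is 1 UMI, and TG at 7.90 against 24.3 CPM, or 2 against 4 UMIs, so a 2-fold difference could not be shown for them at that time. C1QA, C1QB and C1QC encode the chains of complement C1q, a product of macrophages. C1QA was at 37.2, 5.12, 27.9 and 0 CPM in SAA3-rich cells and at 181, 363, 140.4 and 97.3 CPM in cells without SAA3. C1QB was at 10.1, 4.65, 18.6 and 3.95 CPM against 74.9, 198, 73.3 and 54.7 CPM. Depth differed between these cells, with medians of 13490, 15248, 15691 and 16149.5 UMIs in the rich cells and 8838, 6104, 3102 and 9352 UMIs in the others. Among cells of at least 5000 UMIs the C1q genes were the only 3 of the 9 still 2-fold lower in every library.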

How the data were processed

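Per the labels and the study's methods, the authors made the scRNA-seq tables with Cell Ranger on ARS-UCD1.2 (bosTau9) and deposited them as unnormalized UMI counts, 1 row a gene and 1 column a barcode. The scATAC-seq tables the authors deposited also hold counts, summed to genes by a rule not given in the sources used here. No columns were left unused.

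Barcodes were kept where 200 to 3000 genes and no fewer than 200 UMIs were detected, with mitochondrial transcripts below 20% (88.4% to 94.6% of the barcodes). Doublets were not called. Classes were gates on marker UMIs, with no clustering. Counts were added up per class and library, scaled to CPM, and compared as log2 of CPM + 1. Intervals are 95% exact Poisson for CPM, exact Clopper-Pearson for shares and exact conditional binomial for ratios, written in Python 3.11.15 with SciPy 1.17.1. The ratio step was run on simulated Poisson counts. These had no spread between cells or libraries, so they cannot show how the intervals do on these data. With 1 library per treatment and assay, no p-value was computed. The genes named are the SAA rows, members of 4 lists, markers, the 5 genes most like each SAA gene and, picked after their values were seen, genes set apart in SAA3-rich cells and neighbours of SAA3. Members and lists were chosen with earlier results of these data known. Scaling by edgeR 4.0.16 (TMM) and DESeq2 1.42.0 served as alternatives, with other gates, limits, pseudocounts and thinning. No sequence was printed. RefSeq coordinates served only to put genes in order along the chromosome, and their build (ARS-UCD2.0) differs from that of the counts (ARS-UCD1.2).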

Additional observations from a re-analysis of the deposited data

Results flagged for a closer look

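SAA3 at 4 h was higher than without LPS in CD14/CSF1R-positive cells and lower in lymphocytes. The log2 ratios without a pseudocount were 1.10 and -0.74, which differ by 1.84, and counting intervals on both sides excluded 0. SAA2 at 2 h was slightly higher in CD14/CSF1R-positive cells, at 0.04, and lower in lymphocytes, at -1.43, a difference of 1.47. In the CD14/CSF1R-positive cells this ratio was above 0 under 12 of 16 settings and as low as -0.27, so its direction was not settled. These 2 results were picked out because the classes moved in opposite directions between the same pair of libraries. With 1 library per treatment the difference was not tested. The lymphocyte levels behind it, 4.69 to 12.6 CPM, were taken as the background, and whether lymphocytes express these genes was not tested. Without the lymphocyte that held 75 SAA2 UMIs, SAA2 in lymphocytes was 9.12 CPM without LPS against 4.63 CPM at 2 h with its own richest cell left out.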

How the results depend on the processing

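No paired analysis was possible because each treatment has 1 library per assay. Of 185 values recomputed, 104 kept their size, 72 moved and 9 changed sign, and the cause was not tested. Ratios, shares and levels counted as moved outside the counting interval, and list counts by a limit on their fold change instead. All choices but 4 (leaving out the 5 richest cells, summing SAA3 with M-SAA3.2, and both limits of 5000 UMIs) were listed at the start, and those 4 were added after the data were seen. Accessibility and promoter motifs were not run, for want of SAA rows in the scATAC-seq tables and of sequences here. Depth limits genes at a few UMIs, mainly at 8 h with 56 cells. Inside CD14/CSF1R-positive cells SAA3 stayed above no LPS under all 17 settings at 2 h (0.72 to 1.36) and 4 h (0.70 to 1.42) and under 16 of 17 at 8 h. SAA2 stayed below it under all 16 settings at 4 h (-5.43 to -0.14) and 8 h (-4.27 to -0.09), and its sign at 2 h varied (-0.27 to 0.60).

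Log2 ratios to no LPS that moved are given for SAA3 and then SAA2 in the order 2 h, 4 h and 8 h. With no upper limit on genes SAA3 was 0.86, 1.14 and 0.82 and SAA2 -1.26 and -1.33 at 4 h and 8 h. With at least 1 UMI of CD14 plus CSF1R they were 0.73, 1.01 and 0.27, and -0.023, -1.45 and -1.12. With at least 1 UMI of each they were 0.94, 1.42 and 0.56, and 0.51, -1.09 and -0.38. With 4 of 10 monocyte genes they were 0.91, 1.25 and 0.74, and 0.20, -1.18 and -0.64. With lymphocyte genes allowed SAA3 was 0.76 and 0.88 at 2 h and 4 h, and SAA2 0.27, -0.14 and -0.41. Without cells with a CSF3R UMI SAA3 was 0.77 and 1.29 at 2 h and 4 h, and SAA2 -0.27, -1.04 and -0.58. Summed over all cells they were -0.30, -1.34 and -1.11, and -0.79, -2.37 and -2.23. TMM gave 1.25, 1.16 and 0.53, and 0.49 and -0.86 at 2 h and 8 h. DESeq2 size factors gave 1.36 and 1.25, and 0.60 and -1.20, at 2 h and 4 h. With cells weighted equally SAA3 was 0.72, 0.70 and 0.33, and SAA2 -1.59 and -0.086 at 4 h and 8 h. Without the 5 richest cells SAA3 was 0.74 and -1.01 at 4 h and 8 h, and SAA2 -0.17, -5.43 and -4.27. Without cells under 5000 UMIs SAA3 was 1.19 at 4 h, and SAA2 -0.022 at 2 h and -0.85 at 8 h.

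Thinning put the share of cells with SAA3 at 41.4%, 50% and 44.9% (no LPS, 2 h, 8 h) and with SAA2 at 19.1%, 19.1% and 14.3%. Against all lymphocytes, SAA3 in the B gate was 9.96 CPM at 2 h, and in the NK gate 9.44, 8.04 and 24.1 CPM with LPS. SAA2 without LPS was 15.5, 8.06 and 14.6 CPM in the T, B and NK gates, and 2.36 CPM in the NK gate at 2 h. With no upper limit on genes, 5 acute-phase genes were 2-fold higher at 4 h. On the list of SAA inducers and transcription factors, 0 genes were then higher and 1 lower at 8 h. Receptors then lower numbered 2 at 2 h and 1 at 8 h. With no minimum of UMIs, 1 lipid gene was higher at 2 h.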

Other observations

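Cells with exactly 1 UMI of CD14 plus CSF1R fell outside the gate and numbered 82, 68, 28 and 92 in the order no LPS, 2 h, 4 h and 8 h. SAA3 UMIs were found in 20.7%, 14.7%, 3.57% and 59.8% of them, at 846, 100.1, 9.55 and 551 CPM. Inside the gate, SAA3 in cells with 10 or more UMIs of the marker pair was at 6000.5, 10482, 14039 and 9922 CPM. In cells with 2 or 3 such UMIs it was at 3011, 4747, 693 and 636 CPM, from 98, 43, 26 and 18 cells.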
